A study of Homo sapiens with 14 samples.

Results

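The BCL2 family is represented here by 10 genes, taken by name out of 19974 protein-coding genes on chromosomes 1 to 22 and X of the RefSeq GRCh38.p14 table. They are the prosurvival genes BCL2, BCL2L1, MCL1 and BCL2A1, the effector genes BAX and BAK1, and the BH3-only genes BCL2L11, BID, BBC3 and PMAIP1. For each gene the window was the annotated gene body extended by 50 kb on both sides, and every peak overlapping it was taken from each of 14 peak lists. A peak within 2 kb of either annotated gene end was called an end peak, any other peak touching the body an inner peak, and the rest flanking peaks. All 10 genes were found, with windows of 104 to 297 kb, and the lists placed between 6 and 57 peaks in these windows.

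BCL2 family proteins set whether the outer mitochondrial membrane stays intact or is opened to start apoptosis. BAX and BAK1 form the openings, the prosurvival proteins hold them in check, and the BH3-only proteins either block the prosurvival proteins or activate the effectors directly. In T cells, BIM, the product of BCL2L11, is known for removing self-reactive and spent cells, BCL2 for keeping resting cells alive, and BCL2 has been described as a target gene of SATB1.

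The lists came from CUT&Tag, in which an antibody tethers the Tn5 transposase to a chromatin protein or histone mark so that DNA beside it is cut and sequenced. Jurkat, an established human T cell leukaemia line, was transduced with a lentiviral shRNA against SATB1 (shSATB1) or a lentiviral control shRNA (shCtrl), so both arms carried a vector. The groups were CTCF, a protein of insulators and loop anchors, in shSATB1 and shCtrl (3 libraries each), the active promoter and enhancer mark H3K27ac in shSATB1 and shCtrl (2 each), SATB1, a chromatin organiser of T cells, in shCtrl (2), and Matrin 3, a nuclear matrix protein (2, with no shRNA on the label). The labels name no separate cultures, so p-values reflect only how far these libraries differ, and that may be technical. No RNA and no SATB1 list from shSATB1 cells was analysed here, so neither the degree of knockdown nor any transcript level is shown by these values.

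Facts of the whole series bear on every comparison that follows. CTCF lists held 14695 to 20284 peaks over 24.5 to 40.8 Mb in shSATB1, against 31141 to 32540 peaks over 90.1 to 102 Mb in shCtrl. Their median peak width was 1469 to 1745.5 bp in shSATB1 and 2371 to 2559 bp in shCtrl. H3K27ac lists held 15972 to 17925 peaks over 41.0 to 46.5 Mb in shSATB1, against 17141 to 17863 peaks over 52.0 to 53.8 Mb in shCtrl. The deposited signal was not scaled between libraries and the read depth is unknown, so length covered by peaks and presence of a call were compared, and the share of all genes or regions called the same way is given beside the counts of these 10 genes. Between the SATB1 lists 6001 peaks began at the very same base, which is 40.8% of the shorter list and at most 1.03% in the remaining 90 pairs of libraries. The pair was therefore counted as 1 sample with no spread. The 2 Matrin 3 lists held 24566 and 2105 peaks. H3K27ac lay at an end of 6 of 7 T cell marker genes in both shCtrl lists (CD5 was the exception), of 1 of 4 B cell markers (CD79A) and of 0 of 4 myeloid markers, against 38.8% of all genes.

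SATB1 lay at an end of 3 of the 10 genes in both lists, against 24.5% of all protein-coding genes, and no test was made of this count. They were BCL2L1 and BCL2L11, each at the 5′ end, and BAK1 at the 3′ end. MCL1 had a SATB1 peak at its end of higher coordinate in 1 list only. CTCF lay at an end of 6 of the 10 genes in every shSATB1 library, against 9 in every shCtrl library, with 37.9% and 58.0% of all genes called in the same way. H3K27ac lay at an end of 6 of the 10 in both shSATB1 libraries and of 7 in both shCtrl libraries, against 36.9% and 38.8% of all genes. None of the 10 lost H3K27ac at its ends in shSATB1 relative to shCtrl and none gained it, against 0.846% and 0.501% of all genes. BCL2A1 was the gene with no end peak in any of the 14 lists. These calls are drawn by library and gene in the grid of gene ends.

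**Figure D1:**
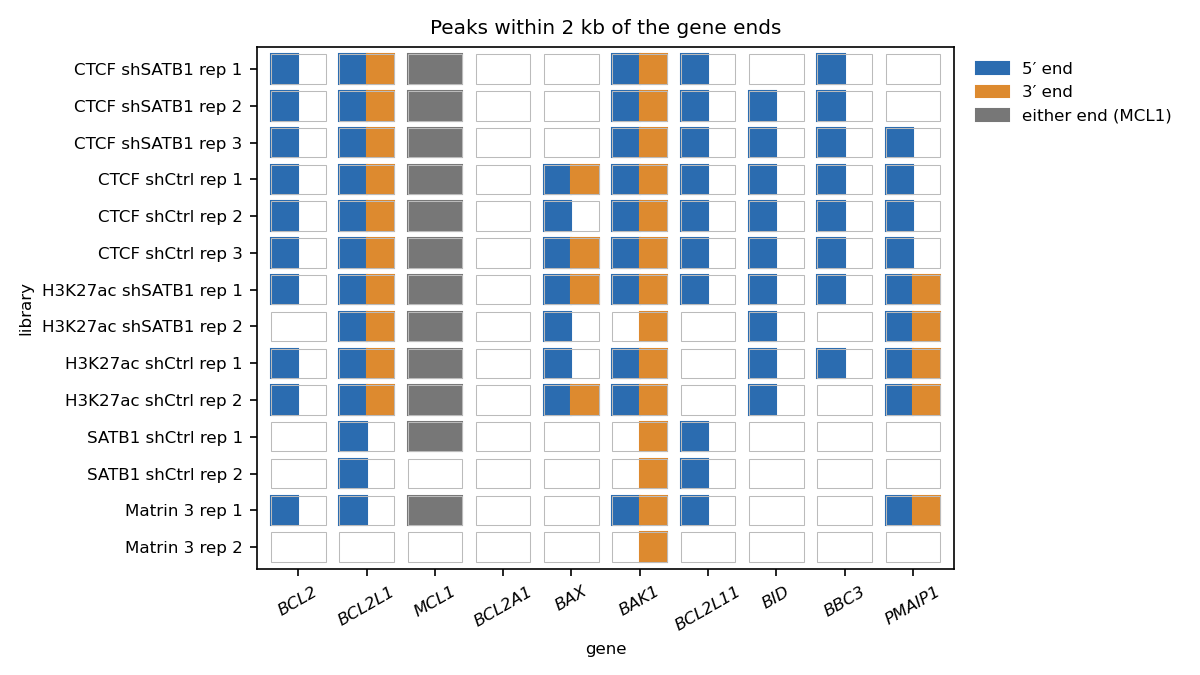
Presence of a peak within 2 kb of the annotated ends of the 10 genes (columns) in each of the 14 libraries (rows). In each box the left part is filled for the 5′ end and the right part for the 3′ end, and MCL1, whose strand was not given, has 1 fill for either end. BAX is empty in the 3 CTCF shSATB1 libraries and filled in the 3 CTCF shCtrl libraries, and BCL2A1 is empty throughout.

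BCL2 (chr18:63123346-63320090, minus strand) encodes the founding prosurvival protein and is the longest of the 10 genes at 197 kb. SATB1 was not at either end but at 1 inner region, chr18:63137809-63138982, 182 kb downstream of the 5′ end and thus near the 3′ end, and at 1 flanking region, chr18:63096142-63101287, 22.1 kb beyond the 3′ end in the non-coding locus LOC105372161. The flanking region ranked at the 87.5 and 85.4 percentile of maximum signal within the 2 SATB1 lists, and the inner one at 13.0 and 18.5; pairs in parentheses after SATB1 regions are these percentiles in list 1 and list 2. The flanking SATB1 region sat inside the H3K27ac domain chr18:63090396-63103478, which ranked at the 99.6 and 99.4 percentile of its lists in shSATB1 and at 99.8 and 99.8 in shCtrl. H3K27ac covered 10.7 and 12 kb of this domain in shSATB1 and 12.4 and 11.3 kb in shCtrl, so the arms overlapped there.

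CTCF covered 5.94, 8.82 and 8.21 kb of the BCL2 window in the shSATB1 libraries, against 26.1, 24.97 and 26.97 kb in the shCtrl libraries. The 5′ end held 1 CTCF peak in each of the 6 libraries. Inner peaks numbered 1 in each shSATB1 library and 3 in each shCtrl library, and flanking peaks 1, 2 and 2 in shSATB1 and 4, 3 and 4 in shCtrl. Every shSATB1 library was thus below every shCtrl library in length. The 5′ end call stayed, but its peak spanned 2345, 1701 and 2365 bp in shSATB1, against 5241, 5426 and 5562 bp in shCtrl. Peaks were narrower in shSATB1 over the whole CTCF lists too, which also bears on the end peaks of the genes below. The 3 regions of the window called in every shCtrl and no shSATB1 library, termed lost here, were chr18:63128457-63132824 and chr18:63137485-63139911 inside the gene and chr18:63341421-63343333 upstream, in KDSR, a sphingolipid synthesis gene. The lost region chr18:63137485-63139911 contained the inner SATB1 peak, and H3K27ac was called over it in all 4 libraries of both arms.

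H3K27ac covered 19.5 and 19.6 kb of the BCL2 window in shSATB1, against 35.1 and 29.5 kb in shCtrl, and the arms did not overlap. At the 5′ end it covered 0.930 and 0 kb in shSATB1, against 2.39 and 2.29 kb in shCtrl. The region chr18:63134871-63140183, which holds the inner SATB1 peak, had 3.10 and 1.97 kb in shSATB1 and 4.46 and 4.60 kb in shCtrl, and the region chr18:63151863-63156578 had 1.60 and 1.81 kb in shSATB1 and 4.21 and 4.60 kb in shCtrl. The shorter H3K27ac length in shSATB1 lay at these 3 places and in smaller flanking regions, and not in the large domain beyond the 3′ end. These H3K27ac regions were chosen for description after their values were seen. The 300 bases of the BCL2 promoter (chr18:63319720-63320019, minus strand, RefSeq GRCh38.p14, 250 bases before to 50 after the annotated start) are shown because H3K27ac peaks overlapped them in neither shSATB1 library and in both shCtrl libraries, while CTCF overlapped them in all 3 libraries of each arm. They held 31 CpG, against a median of 14 over 34961 promoters, and no match to the motifs searched.
BCL2: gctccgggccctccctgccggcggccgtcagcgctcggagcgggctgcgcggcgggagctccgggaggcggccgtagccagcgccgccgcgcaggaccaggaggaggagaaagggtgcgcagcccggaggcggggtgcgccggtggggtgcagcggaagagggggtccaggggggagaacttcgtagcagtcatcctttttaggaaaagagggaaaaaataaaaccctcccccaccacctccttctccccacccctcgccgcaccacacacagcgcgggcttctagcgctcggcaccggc

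**Figure D2:**
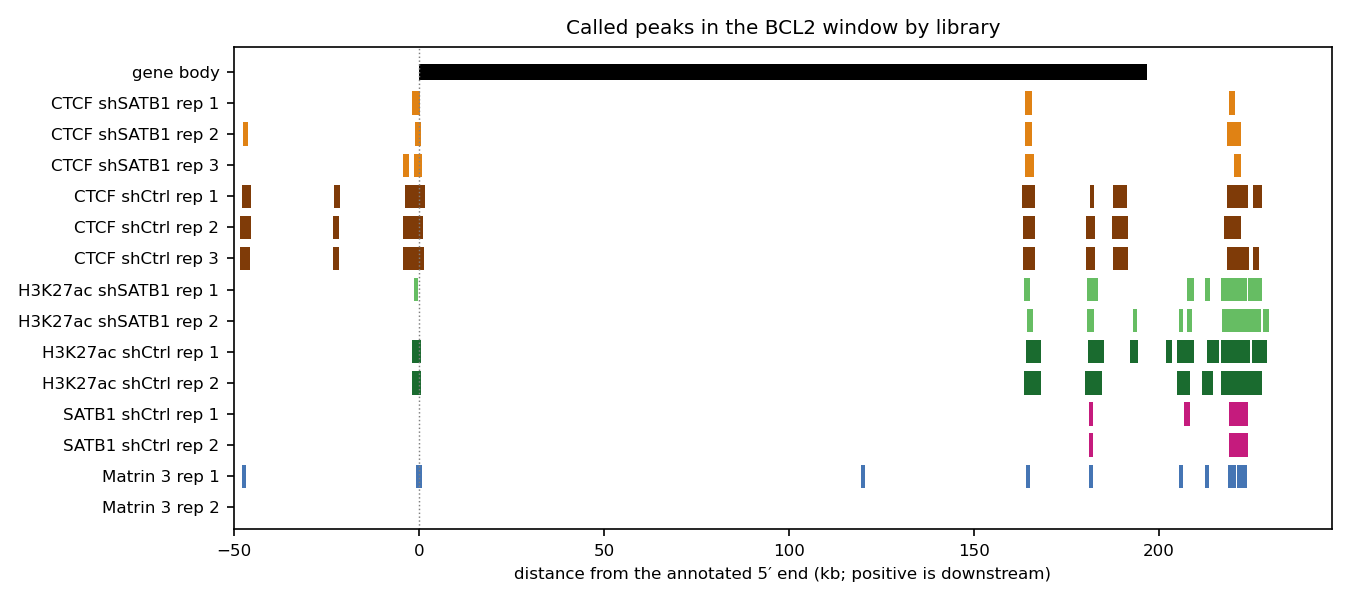
Extent of every called peak in the BCL2 window (horizontal bars) in each of the 14 libraries (rows), drawn by distance in kb from the annotated 5′ end, with the gene body in black at the top. The CTCF bars just inside the 3′ end are present in the 3 shCtrl rows and absent from the 3 shSATB1 rows, while the broad H3K27ac block beyond the 3′ end is present in all 4 H3K27ac rows and holds a SATB1 peak.

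BCL2L1 (chr20:31664452-31723963, minus strand) encodes BCL-XL, a prosurvival protein that supports survival of immature T cells. Its window held 5 SATB1 regions of both lists, the most among the 10 genes. SATB1 lay at the 5′ end at chr20:31722905-31724347 (percentiles 54.3 and 57.9), at 3 inner regions, and at chr20:31738840-31740165 (65.7 and 65.2), which lies at an end of TPX2, a spindle assembly gene. The inner regions chr20:31673434-31676514 (62.4 and 61.7) and chr20:31683837-31687213 (54.3 and 73.8) lay inside 1 H3K27ac domain, chr20:31670353-31689267. That domain ranked at the 99.5 and 99.8 percentile in shSATB1 and at 99.8 and 99.7 in shCtrl, with 17.5 and 17.5 kb covered in shSATB1 and 18.8 and 16.1 kb in shCtrl.

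CTCF covered 10.0, 19.0 and 15.9 kb of the BCL2L1 window in shSATB1, against 38.0, 35.2 and 40.3 kb in shCtrl, with no overlap between the arms. Both gene ends kept 1 CTCF peak each in all 6 libraries, and no CTCF region of the window was lost. The 5′ end region ranked at the 97.0, 98.0 and 98.4 percentile in shSATB1 and at 98.9, 99.1 and 99.0 in shCtrl, so it was among the strongest calls of every CTCF list. H3K27ac covered 36.0 and 34.1 kb in shSATB1, against 47.9 and 47.0 kb in shCtrl. The difference was greatest in the inner region chr20:31705281-31718095, with 3.31 and 3.71 kb in shSATB1 and 9.44 and 10.6 kb in shCtrl. In that region no SATB1 region of both lists was called.

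The BCL2L1 promoter entry chr20:31723914-31724213 was overlapped by the SATB1 and CTCF peaks of the 5′ end but had no CTCF core match. The entry shown (chr20:31722819-31723118, minus strand) had the same overlaps and was picked for its motif match. It was the only one of 14 promoter entries of these genes with a match to a loose CTCF core motif, searched on both strands and found in 2.41% of all promoters. The capitals mark that match, at bases 162 to 173; of its 12 letters, any base was allowed at 4, 5, 8 and 9 and the other letters were required as shown.
BCL2L1: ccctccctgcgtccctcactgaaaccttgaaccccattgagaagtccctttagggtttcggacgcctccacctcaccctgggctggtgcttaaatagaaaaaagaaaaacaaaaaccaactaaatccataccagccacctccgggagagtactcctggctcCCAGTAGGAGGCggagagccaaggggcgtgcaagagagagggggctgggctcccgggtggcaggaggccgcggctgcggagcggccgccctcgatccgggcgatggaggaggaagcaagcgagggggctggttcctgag

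MCL1 (chr1:150574558-150579610) encodes a short-lived prosurvival protein that T cells need throughout their life. Its end of higher coordinate held 1 CTCF peak in each of the 6 libraries and 1 H3K27ac peak in each of the 4. CTCF covered 3.74, 4.29 and 10.1 kb of the window in shSATB1, against 19.3, 17.9 and 25.04 kb in shCtrl, with 2, 2 and 5 flanking peaks in shSATB1 and 5, 5 and 6 in shCtrl. The gene end therefore kept its call, but its peak as well as the flanking length was shorter in every shSATB1 library. The end peak spanned 777, 1102 and 1736 bp in shSATB1, against 2446, 2572 and 2678 bp in shCtrl. The lost CTCF region, chr1:150618584-150623508, lay in ENSA, a regulator of mitotic phosphatase activity. H3K27ac covered 3.35 and 2.42 kb in shSATB1 and 3.41 and 3.82 kb in shCtrl, and the highest shSATB1 value lay just under the lowest shCtrl value. The SATB1 region of both lists, chr1:150628769-150630088, ranked at 89.4 and 91.3 and also lay at an end of ENSA.

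BCL2A1 (chr15:79960892-79971196, minus strand) encodes A1, a prosurvival protein induced by immune activation. No list called a peak at its ends or inside it. Its window held 2 CTCF flanking peaks in each shSATB1 library and 3, 2 and 3 in shCtrl, covering 2.24, 2.47 and 3.08 kb in shSATB1 and 7.05, 2.85 and 6.84 kb in shCtrl, and these arms overlapped. H3K27ac covered 3.18 and 2.06 kb in shSATB1 and 4.02 and 4.41 kb in shCtrl. The SATB1 region chr15:79923142-79924391 (76.1 and 79.9) lay 36.5 kb from the gene, at an end of ST20-MTHFS. The promoter of BCL2A1 (chr15:79971147-79971446, minus strand) is shown as the one without any call in 14 lists. It had 2 CpG and 41.0% G and C, against medians of 14 CpG and 58.7% over all promoters, and no match to the motifs searched.
BCL2A1: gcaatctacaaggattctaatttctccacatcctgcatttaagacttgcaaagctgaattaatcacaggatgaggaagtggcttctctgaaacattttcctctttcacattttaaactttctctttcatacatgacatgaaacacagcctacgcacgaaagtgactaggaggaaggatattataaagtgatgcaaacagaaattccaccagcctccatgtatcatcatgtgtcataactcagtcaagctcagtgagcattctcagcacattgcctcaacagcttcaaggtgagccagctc

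**Figure D3:**
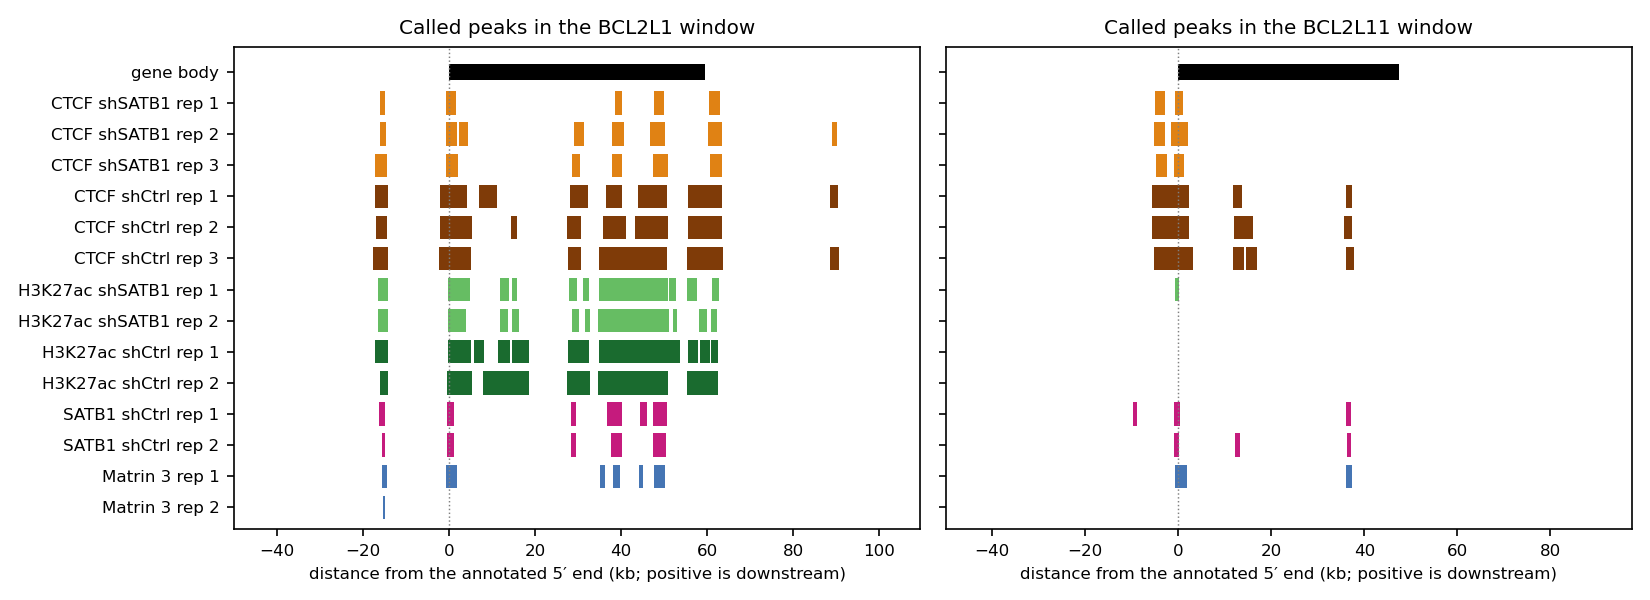
Extent of every called peak in the BCL2L1 window (left) and the BCL2L11 window (right) in each of the 14 libraries (rows), by distance in kb from the annotated 5′ end, with the gene bodies in black. Both 5′ ends carry CTCF in all 6 CTCF libraries and SATB1 in both lists. BCL2L1 has a broad H3K27ac block in all 4 H3K27ac rows, and BCL2L11 has 1 narrow H3K27ac peak, in shSATB1 replicate 1.

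BAX (chr19:48954875-48961798, plus strand), an effector, was the only one of the 10 genes at which CTCF was lost at an end. That is 1 of the 9 genes with a CTCF end call in every shCtrl library, and among all genes so called 14.8% lost CTCF at their ends (8.58% of all genes). The 5′ end region chr19:48953975-48957060 was not called in any shSATB1 library, against 3.04, 1.95 and 1.60 kb under peaks in the shCtrl libraries. It ranked at only the 20.5, 12.3 and 19.5 percentile of the shCtrl lists. H3K27ac was called at the same 5′ end in both libraries of each arm, and SATB1 was not called there. At the other side, the region chr19:48963284-48972955 over FTL, the ferritin light chain gene, was called in every CTCF library, but came within 2 kb of the BAX 3′ end in shCtrl replicates 1 and 3 and in no shSATB1 library.

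Over the whole BAX window CTCF covered 7.90, 11.9 and 10.3 kb in shSATB1, against 21.8, 20.3 and 19.9 kb in shCtrl. H3K27ac covered 6.90 and 4.4 kb in shSATB1 and 4.52 and 6.90 kb in shCtrl, which overlapped fully. SATB1 lay at 2 flanking regions, at FTL (chr19:48965059-48965988, 83.1 and 78.1) and at ends of both GYS1 and RUVBL2 (chr19:48993242-48994090, 86.7 and 73.8). The BAX promoter (chr19:48954625-48954924, plus strand) is shown because CTCF peaks overlapped it in 0 of 3 shSATB1 libraries and in 3 of 3 shCtrl libraries. It had 38 CpG and no CTCF core match. The capitals mark GC boxes, GGGCGG on either strand, a motif found in 45% of all promoters.
BAX: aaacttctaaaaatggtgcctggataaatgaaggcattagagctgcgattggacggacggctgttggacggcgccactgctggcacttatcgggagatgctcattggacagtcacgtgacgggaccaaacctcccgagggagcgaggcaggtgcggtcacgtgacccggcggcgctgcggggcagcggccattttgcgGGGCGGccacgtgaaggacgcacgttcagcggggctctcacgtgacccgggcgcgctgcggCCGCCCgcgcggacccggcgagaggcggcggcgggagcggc

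BAK1 (chr6:33572552-33580276, minus strand), the other effector, kept CTCF at both ends in all 6 libraries. CTCF covered 5.46, 9.56 and 11.3 kb of the window in shSATB1, against 18.6, 22.2 and 24.0 kb in shCtrl. The shorter length in every shSATB1 library came with 2, 2 and 3 flanking peaks in shSATB1, against 4, 5 and 5 in shCtrl, and with 1 lost region, chr6:33607014-33610663. The CTCF peak at the 5′ end was shorter too, at 1334, 2330 and 2305 bp in shSATB1, against 3411, 5228 and 4681 bp in shCtrl. H3K27ac covered 4.80 and 1.93 kb in shSATB1, against 5.95 and 7.14 kb in shCtrl, and the 5′ end was called in 1 of 2 shSATB1 and 2 of 2 shCtrl libraries. SATB1 lay just beyond the 3′ end at chr6:33570715-33572045 (84.4 and 79.9). At this SATB1 region CTCF, H3K27ac and Matrin 3 were called in every library of every group. Among the 3 SATB1 regions at an end of the 10 genes this held only here. It also held at flanking SATB1 regions of other windows, at ENSA, ST20-MTHFS, TPX2, CCDC9 and GYS1 with RUVBL2.

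BCL2L11 (chr2:111120914-111168445, plus strand) encodes BIM, a BH3-only protein that binds every prosurvival member. SATB1 lay at its 5′ end at chr2:111120042-111121307 (44.2 and 43.1), which is also within 2 kb of an end of ACOXL, and at the inner region chr2:111157041-111158073 (32.1 and 12.6). CTCF was called at the 5′ end in all 6 libraries. It covered 3.85, 6.04 and 4.69 kb of the window in shSATB1, against 11.1, 13.7 and 14.7 kb in shCtrl. Inner CTCF peaks numbered 0 in each shSATB1 library and 2, 2 and 3 in shCtrl, so they were called only in shCtrl. Flanking CTCF peaks numbered 1 in each shSATB1 library and 0 in shCtrl. Each of these flanking peaks lay within the stretch covered by the broad 5′ end peak of every shCtrl library. The lost regions were chr2:111132704-111137889 and chr2:111156511-111158641, and the second contained the inner SATB1 peak, with no H3K27ac call in any of the 4 libraries.

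H3K27ac was called once in the BCL2L11 window, over 0.815 kb at the 5′ end in shSATB1 replicate 1, and not in shSATB1 replicate 2 or in either shCtrl library. BCL2L11 was thus a gene with SATB1 and CTCF at its 5′ end and no H3K27ac call there in shCtrl. That made 1 of the 3 with SATB1 at an end, and of all genes with SATB1 at an end in both lists 5.29% had H3K27ac there in neither shCtrl library. The BCL2L11 promoter (chr2:111120664-111120963, plus strand), overlapped by SATB1 in both lists and by CTCF in every library, is shown with its GC boxes in capitals and has 39 CpG.
BCL2L11: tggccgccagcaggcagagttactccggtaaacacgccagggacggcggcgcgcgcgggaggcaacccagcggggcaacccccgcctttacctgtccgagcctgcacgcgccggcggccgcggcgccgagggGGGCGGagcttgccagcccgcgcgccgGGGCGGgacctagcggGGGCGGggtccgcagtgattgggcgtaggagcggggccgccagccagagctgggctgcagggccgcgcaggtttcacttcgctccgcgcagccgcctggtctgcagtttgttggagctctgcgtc

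BID (chr22:17734138-17774665, minus strand) encodes a BH3-only protein that links death receptors to mitochondria. CTCF covered 11.6, 15.3 and 18.3 kb of its window in shSATB1, against 28.8, 35.9 and 40.0 kb in shCtrl. The 5′ end was called in 2 of 3 shSATB1 libraries and 3 of 3 shCtrl libraries. BID had as many lost CTCF regions as BCL2, namely chr22:17753164-17755916 inside the gene, chr22:17726002-17728684 in BCL2L13, another family gene, and chr22:17791721-17798809 in MICAL3, a gene of actin and vesicle transport. H3K27ac covered 22.8 and 19.9 kb in shSATB1, against 27.1 and 25.8 kb in shCtrl. The region chr22:17726154-17727569, within the lost CTCF region of BCL2L13, was the single H3K27ac region called in both shCtrl and neither shSATB1 library, and it ranked at only 3.78 and 6.70 in the shCtrl lists. SATB1 lay upstream of BID at 3 regions, of which chr22:17779489-17782029 (44.2 and 57.9) ranked highest on the mean of both lists.

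BBC3 (chr19:47220824-47232860, minus strand) encodes PUMA, a BH3-only protein induced by p53. CTCF covered 13.4, 24.0 and 20.1 kb in shSATB1, against 32.6, 33.7 and 34.2 kb in shCtrl, and the 5′ end was called in all 6 libraries. No CTCF region of the window was lost, and flanking peaks numbered 5, 9 and 6 in shSATB1 and 7 in each shCtrl library. H3K27ac covered 5.40 and 7.0 kb in shSATB1 and 10.7 and 4.96 kb in shCtrl, and lay at the 5′ end in 1 of 2 libraries of each arm. The SATB1 region chr19:47256687-47257730 (91.4 and 89.2) lay at an end of CCDC9, 23.8 kb from BBC3, and a further one at ends of both CCDC9 and INAFM1.

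PMAIP1 (chr18:59899996-59904305, plus strand) encodes NOXA, a BH3-only protein that opposes MCL1. Its only CTCF peak lay at the 5′ end, with 0, 0 and 2.12 kb in shSATB1 and 2.81, 2.22 and 1.75 kb in shCtrl. The arms overlapped because of shSATB1 replicate 3, and without that library PMAIP1 also counted as having lost CTCF at its end. H3K27ac was called at both ends in all 4 libraries, over 6.16 and 4.03 kb in shSATB1 and 6.93 and 4.17 kb in shCtrl. SATB1 lay 2.12 kb beyond the 3′ end at chr18:59906428-59907770 (4.02 and 1.42), the one SATB1 region of both lists in these windows without CTCF in any library. The PMAIP1 promoter (chr18:59899746-59900045, plus strand), overlapped by CTCF in 1 of 3 shSATB1 and 3 of 3 shCtrl libraries, has 42 CpG, the most among the promoter entries of these genes, and its GC boxes are in capitals.
PMAIP1: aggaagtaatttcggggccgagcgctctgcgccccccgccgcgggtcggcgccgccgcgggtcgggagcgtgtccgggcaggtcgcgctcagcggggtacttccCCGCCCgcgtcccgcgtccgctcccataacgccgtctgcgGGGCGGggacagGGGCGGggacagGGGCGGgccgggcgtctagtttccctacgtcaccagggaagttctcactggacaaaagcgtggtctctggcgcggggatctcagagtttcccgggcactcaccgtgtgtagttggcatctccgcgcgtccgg

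Set side by side, CTCF peaks covered 64.2, 101 and 104 kb of the 10 windows in shSATB1 and 206, 209 and 234 kb in shCtrl. In 8 of the 10 genes every shSATB1 library was below every shCtrl library, the exceptions being BCL2A1 and PMAIP1. The same was found in 93.9% of all 17148 genes tested, so 8 of 10 is near the background. The mean ± SD was 7.66 ± 1.52 kb in shSATB1 and 26.0 ± 1.00 kb in shCtrl at BCL2, and 15.0 ± 4.54 kb in shSATB1 and 37.8 ± 2.57 kb in shCtrl at BCL2L1 (n = 3 each). At BBC3, the member with the smallest relative difference, it was 19.2 ± 5.37 kb in shSATB1 and 33.5 ± 0.831 kb in shCtrl. The ratio of shSATB1 to shCtrl means ran from 0.291 at MCL1 and 0.294 at BCL2 to 0.572 at BBC3, with a median of 0.401, beside 0.373 over all genes tested. The two-sided exact permutation p was 0.1 in the 8 genes, the smallest that 3 libraries against 3 can give, and 0.2 in BCL2A1 and PMAIP1; adjusted by Benjamini-Hochberg over all genes tested these were 0.107 and 0.209. No gene could pass 0.05 in this design.

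**Figure D4:**
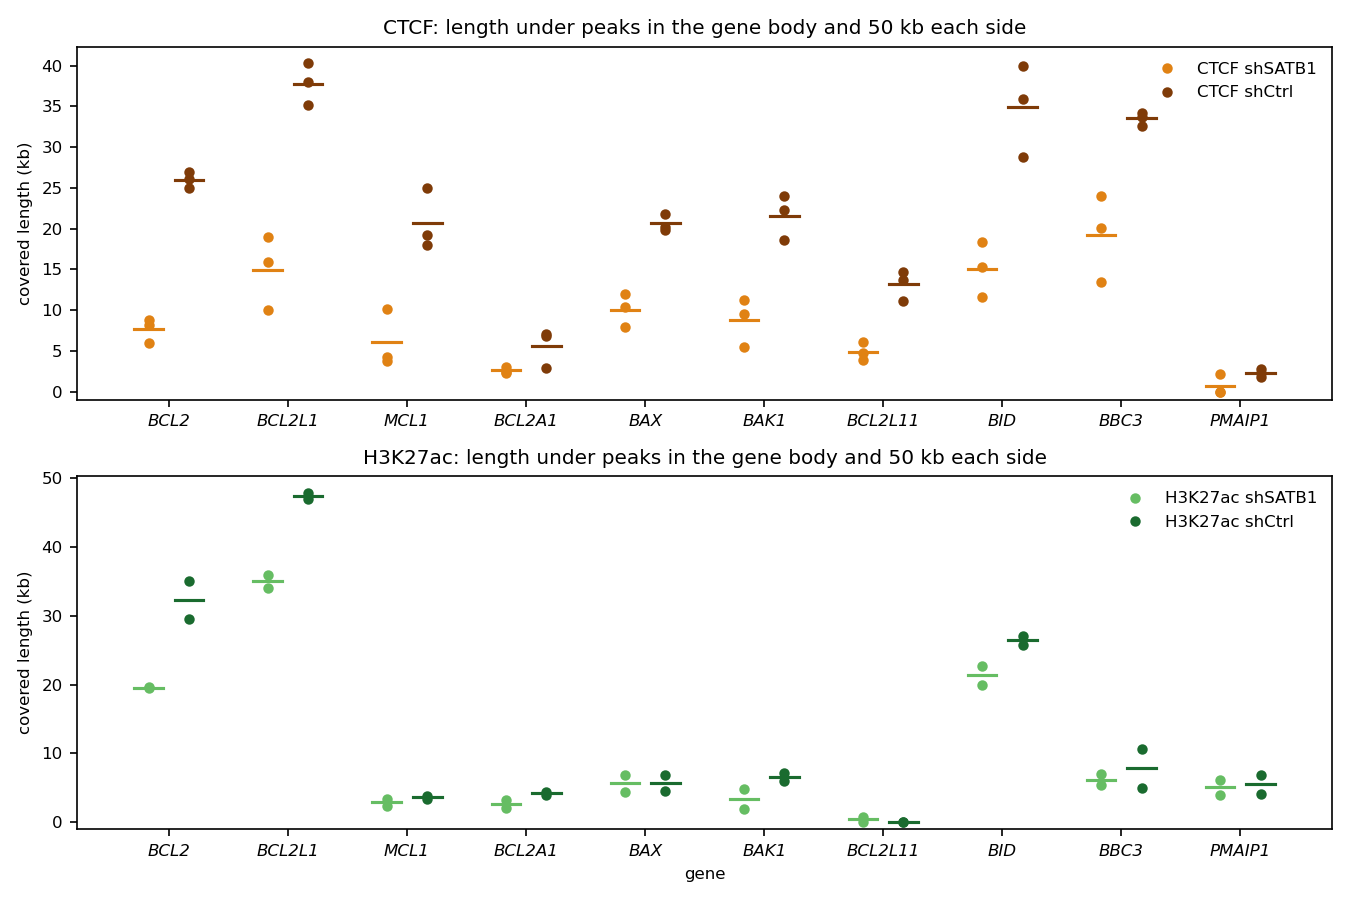
Length in kb under CTCF peaks (top) and H3K27ac peaks (bottom) in the gene body and 50 kb on each side, for each of the 10 genes. Each point is 1 library, with shSATB1 left of shCtrl, and the horizontal line is the mean. The CTCF arms are apart in all genes but BCL2A1 and PMAIP1, and the H3K27ac arms are farthest apart in BCL2 and BCL2L1.

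H3K27ac peaks covered 109 and 95.5 kb of the windows in shSATB1 and 146 and 134 kb in shCtrl. Both shSATB1 libraries were below both shCtrl libraries in 6 of the 10 genes (BCL2, BCL2L1, MCL1, BCL2A1, BAK1 and BID) and above them in 0, against 45.5% lower and 6.33% higher among 14608 genes tested. The means ± SD were 19.6 ± 0.0622 kb in shSATB1 and 32.3 ± 3.98 kb in shCtrl at BCL2, 35.1 ± 1.31 kb in shSATB1 and 47.4 ± 0.677 kb in shCtrl at BCL2L1, and 3.36 ± 2.03 kb in shSATB1 and 6.55 ± 0.845 kb in shCtrl at BAK1 (n = 2 each). The 6 of 10 lower is not far from the 45.5% of all genes. All 4 prosurvival genes and 1 of the 2 effectors were among the 6, as was 1 of the 4 BH3-only genes. BCL2L11, a BH3-only gene, had 0 kb of H3K27ac in shCtrl and so could not be lower. This split by role was not tested, and it depended on the window. With windows of 20 kb, 4 genes were lower, and neither MCL1 nor BCL2A1 was among them. The H3K27ac regions of the BCL2A1 window lay 36.2 and 26.0 kb from the gene. MCL1 was among the 6 by a narrow margin, with a highest shSATB1 value of 3.35 kb and a lowest shCtrl value of 3.41 kb. With windows of 500 bp on the peak maxima, 1 gene was lower. The median ratio was 0.793, beside 0.833 over all genes tested. With 2 libraries against 2 the smallest exact permutation p is 0.333, which these 6 genes had, and 0.643 after Benjamini-Hochberg adjustment.

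Because whole lists differed in length between the arms, each window's covered length was also taken per Mb of all peaks in its library. On that scale CTCF was lower in every shSATB1 library at BCL2 only, with a mean of 235 bp per Mb in shSATB1 and 273 bp per Mb in shCtrl, and higher in every shSATB1 library at BAX, BID and BBC3, against 19.5% of all genes lower and 30.9% higher. At BBC3 the means were 584 bp per Mb in shSATB1 and 352 bp per Mb in shCtrl. The direction of the CTCF difference thus depended on this scaling in 7 of the 10 genes, and stayed negative in BCL2, MCL1 and PMAIP1. H3K27ac on that scale was lower at BCL2, BCL2L1, BCL2A1, BAK1 and BID and higher at none, against 20.7% lower and 23.7% higher among all genes. At BCL2 the H3K27ac means were 448 bp per Mb in shSATB1 and 610 bp per Mb in shCtrl. At BID they were close, at 488 bp per Mb in shSATB1 and 500 bp per Mb in shCtrl. BCL2L11, with 0 in shCtrl, could not be lower. This scale was added after the data had been seen.

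**Figure D5:**
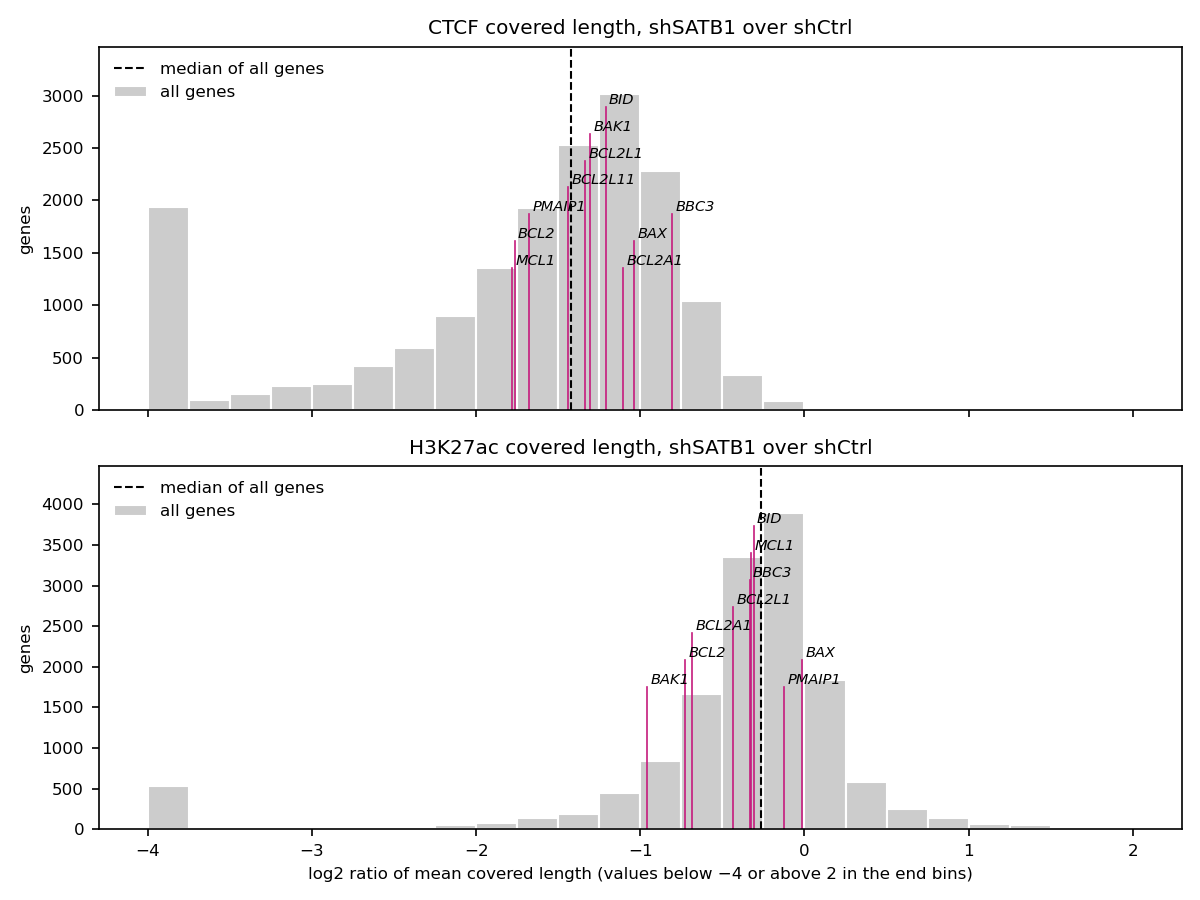
Distribution over all genes tested (grey bars, number of genes) of the log2 ratio of mean covered length, shSATB1 over shCtrl, for CTCF (top) and H3K27ac (bottom), with the 10 genes as coloured lines and the median of all genes dashed. Ratios beyond the axis, including 0, are in the end bins, and BCL2L11 has no H3K27ac ratio because it was not called in shCtrl. The lines lie on both sides of the median for CTCF, and BAK1, BCL2 and BCL2A1 are the lowest for H3K27ac.

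Merging overlapping peaks of the libraries compared gave 58 CTCF regions in the windows, of which 29 (50%) were called in every library of both arms, 11 (19.0%) were lost and 0 were gained. Among all 34146 CTCF regions 35.7% were in every library, 22.7% were lost and 0.00879% were gained. The lost regions lay 1 at a gene end, 5 inside genes and 5 in flanks, in the windows of BCL2 and BID (3 each), BCL2L11 (2), MCL1, BAX and BAK1. Of these 11, 2 overlapped SATB1 regions, beside 16.4% of all lost CTCF regions, and 7 had no H3K27ac call in any library. The share of all lost CTCF regions without H3K27ac was not taken, so the 7 have no background here. In the shCtrl lists the lost regions ranked between the 0.365 and 45.3 percentile with a median of 19.5, against 36.3 to 99.8 with a median of 87.2 for the regions in every library. With each CTCF list limited to its 14695 strongest peaks, 0 of 34 regions in the windows were lost and 0 were gained, against 3.24% and 1.16% of all 18458 regions. BAX then no longer counted as having lost CTCF at an end, a loss found in 1.63% of all genes at that length; the lost regions all ranked in the part of the shCtrl lists that this limit removes. For H3K27ac 25 of 40 regions (62.5%) were in every library, 1 (2.50%) was lost and 0 were gained, against 59.7%, 5.95% and 2.62% of all 20526 regions. The lost H3K27ac region did not overlap SATB1, beside 12.9% of all lost H3K27ac regions that did.

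SATB1 regions of both lists numbered 20 in the windows, and each of the 10 genes had at least 1, against 57.6% of all genes with SATB1 in their window in both lists. Of these, 3 lay at an end of one of the 10 genes, 5 inside BCL2, BCL2L1 and BCL2L11, and 12 in flanks, 8 of them at an end of another protein-coding gene. Places were not counted for SATB1 regions outside these windows. CTCF was called in every shSATB1 library at 15 of the 20 (75%) and in every shCtrl library at 19 (95.0%), beside 39.2% and 65.6% of all 13072 SATB1 regions. Those 13072 were not limited to gene windows, unlike the 20, and shares for SATB1 regions near genes alone were not taken. H3K27ac was called in both libraries at 18 of the 20 in shSATB1 and 18 in shCtrl (90.0% each), the exceptions being the SATB1 regions of BCL2L11. Among all 13072 SATB1 regions the shares were 74.7% in shSATB1 and 74.8% in shCtrl. Matrin 3 was called at 19 of the 20 in replicate 1 and 6 in replicate 2, beside 82.9% and 11.2% of all SATB1 regions. All 6 Matrin 3 peaks that replicate 2 placed in the windows overlapped SATB1 regions, at ENSA, ST20-MTHFS, the BAK1 3′ end, TPX2, CCDC9 and GYS1 with RUVBL2. In the whole series 1465 of the 13072 SATB1 regions overlapped this short list of 2105 peaks. The share of all its peaks at SATB1 regions was not taken. Of the 10 genes, 6 had Matrin 3 at an end in replicate 1 and 1 (BAK1) in replicate 2, against 49.3% and 7.92% of all genes.

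Other genes of the family were counted in the same way. Among 12 further BCL2 family genes SATB1 lay at an end of 3, namely BCL2L13, BAD and BMF, against 24.5% of all genes. CTCF was at an end of 5 in every shSATB1 library and of 7 in every shCtrl library, against 37.9% and 58.0% of all genes. It was lost at BCL2L13, with 0 of 3 shSATB1 and 3 of 3 shCtrl libraries, 1 of these 7, beside 14.8% of all genes called in every shCtrl library. H3K27ac was at an end of 4 in both shSATB1 and of 7 in both shCtrl libraries, against 36.9% and 38.8% of all genes. It was lost at BMF, a BH3-only gene that had SATB1 and, in all 6 libraries, CTCF at an end; 2.18% of all genes whose ends carried H3K27ac in both shCtrl libraries lost it there. Covered length was lower in shSATB1 without overlap in 12 of the 12 for CTCF (median ratio 0.406) and in 7 for H3K27ac (0.761), against 93.9% and 45.5% of all genes tested.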

How the data were processed

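CUT&Tag peak lists of 14 libraries were used. The submitters' processing notes name SEACR, Bowtie2, deepTools, SAMtools and Trim Galore for every library, MACS2 for those other than Matrin 3, and the build GRCh38; no version was given in the sources used here. The deposited lists give each peak's position and its total and maximum signal (coverage), unscaled by the authors, which served only as ranks within a list. Peaks outside chromosomes 1 to 22 and X (405 of 273747) were left out. Peaks sharing 1 bp were merged into regions. Covered length was compared by two-sided exact permutation tests over libraries with Benjamini-Hochberg adjustment over all genes tested; no test was made of counts over the 10 genes. Exons were not separated from introns. A list of apoptosis genes outside the family is not reported here. The genes and lists were chosen with earlier results of these data known. Regions named were each gene's highest-ranked SATB1 region and all lost or gained regions; others were chosen after their values were seen. Promoters came from RefSeq (GRCh38.p14), with 14 entries for 9 of the 10 genes. Alternatives were equal list lengths, the highest 75% of each list, windows of 500 bp on peak maxima, other gene windows, each library left out and the replicate number as a block. Scripts (Python 3.11.15, numpy 2.4.6, pandas 2.3.3) were tested on simulated data. Positions are 1-based.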

Additional observations from a re-analysis of the deposited data

How the results depend on the processing

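Counts are of the 10 genes or of regions in their windows, and differences are shSATB1 minus shCtrl in kb unless stated. With equal list lengths the genes that lost CTCF at an end, the lost CTCF regions and the lost H3K27ac regions each numbered 0, and the BBC3 H3K27ac difference was 0.143. With the highest 75% of each list, 2 H3K27ac regions were lost and the BCL2L11 H3K27ac difference was 0. With windows of 500 bp on the maxima, lower CTCF was found in 4 genes and lower H3K27ac in 1 gene. On that setting 2 CTCF regions and 4 H3K27ac regions were gained, 2 H3K27ac regions were lost, the BBC3 CTCF difference was 0.333, and the H3K27ac differences of BCL2L1, BAX and PMAIP1 were 1, 0 and 0; on this scale a peak counts only by its number, not its width. With 20 kb windows lower H3K27ac was found in 4 genes. Both BCL2A1 differences were then 0, since its window held no CTCF or H3K27ac peak. With 100 kb windows the BAX H3K27ac difference was 0.276. Ends of 5 kb gave 6 genes with SATB1 and 0 that lost CTCF. Per Mb of all peaks in the library, an alternative chosen after seeing the data, lower CTCF was found in 1 gene and the CTCF differences in bp per Mb were 57.1 for BCL2L1, 21.5 for BCL2A1, 92.2 for BAX, 34.6 for BAK1, 12.7 for BCL2L11, 94.0 for BID and 231 for BBC3, and the H3K27ac ones 19.4 for BAX and 10.7 for PMAIP1. Apart from what is stated, the causes were not tested.

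Leaving out 1 library at a time gave 3 to 4 genes with SATB1 at an end, 1 to 2 that lost CTCF at an end (2 without shSATB1 replicate 3, BAX and PMAIP1), 8 to 10 with lower CTCF, 6 to 8 with lower H3K27ac, 0 to 2 with higher H3K27ac, 11 to 15 lost and 0 gained CTCF regions, and 1 to 6 lost and 0 to 2 gained H3K27ac regions. For H3K27ac this set 2 libraries against a lone one. Lost H3K27ac regions numbered 2 without shCtrl replicate 1, 5 without shCtrl replicate 2 and 6 without shSATB1 replicate 1. H3K27ac differences that turned were 1.24 for BBC3 and 0.924 for PMAIP1 without shCtrl replicate 1, 1.13 for BAX without shCtrl replicate 2, 0 for BCL2L11 without shSATB1 replicate 1, and 1.19 for BAX and 0.606 for PMAIP1 without shSATB1 replicate 2, within ranges of -4.48 to 1.24 for BBC3, -1.84 to 0.924 for PMAIP1, -1.31 to 1.19 for BAX and 0 to 0.815 for BCL2L11. The CTCF differences of BCL2, MCL1 and PMAIP1 and the H3K27ac differences of BCL2, MCL1, BAK1 and BID kept their direction under every alternative run. In all, 216 of the values per gene kept their direction and 24 did not.

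The labels do not say that a replicate number is shared between arms. Same-numbered CTCF libraries deviated together across 17148 genes with correlations of 0.26, 0.03 and 0.25, shSATB1 replicate 2 being closer to shCtrl replicate 3 (0.05). For same-numbered H3K27ac libraries the correlation was 0.11. With 2 libraries in each arm both same-numbered pairs must give the same value, so this is a single value. The numbers were not taken as pairs. With the replicate block, lower CTCF was found in 9 genes (BCL2A1 added), lower H3K27ac in 7 (PMAIP1 added) and higher H3K27ac in 0, the lost and gained regions stayed at 11, 0, 1 and 0, and the smallest possible p was 0.25 for CTCF and 0.5 for H3K27ac, so no gene could pass 0.05 with the block either.

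Peak lists hold no read depth, so no limit of detection can be given. Called CTCF peaks had a lowest total signal of 6017 to 7332 in shSATB1 and 13359 to 14792 in shCtrl, in unscaled units. Whether fewer reads, another threshold or less CTCF gave the shorter shSATB1 lists cannot be told apart here.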

Other observations

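A further 6 SATB1 regions in the windows were called in only 1 of the 2 SATB1 lists. They were the end of MCL1 of higher coordinate (percentile 32.1 in list 1), a BCL2 flank (4.02), a BCL2L11 flank (32.1), a BCL2L1 inner region (7.94) and a BID inner region (32.1), all in list 1, and a BCL2L11 inner region in list 2 (31.0). The last lay in the lost CTCF region chr2:111132704-111137889. The mean percentile of the 20 regions of both lists ran from 1.5, inside BCL2L1, to 90.3, at ENSA and at CCDC9, with a median of 59.1.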
